A study of Mus musculus with 24 samples.

Results

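Alveolar macrophages given interleukin-13 (IL-13) alone were compared with untreated cells. The comparison sets 3 libraries of the rIL-13 group (recombinant IL-13) against 3 libraries of the Untreated group, 6 of the 24 libraries in the series. Levels are the deposited TPM, which are per gene span with introns, so they are compared between libraries and not between genes. The comparison covers the 13215 of 17017 genes that reached 1 TPM (a gene's length-scaled share of a library's reads) in at least 3 of the 24 libraries. The cells were primary alveolar macrophages, the resident phagocytes of the air spaces, from wild-type mice of the strain BALB/cJ, and RNA was taken 20 h after stimulation. Neither group had received rIL-33 or rIL-17A, the cytokines that the other 6 groups of 3 libraries were given singly, together or beside rIL-13. The labels used here state neither the cytokine dose nor how the cells were collected. They also leave unsaid whether libraries of 1 group stem from different animals or cultures, and each p-value therefore reflects library-to-library variation that could be technical.

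IL-13 is a cytokine of allergic inflammation, parasite defence and tissue repair. It binds a receptor made of the Il13ra1 and Il4ra products, and Janus kinases attached to that receptor phosphorylate the transcription factor STAT6, which pairs up, enters the nucleus and binds palindromic DNA of the form TTC and GAA with a short spacer. Macrophages respond with what is called alternative activation, a state known for chitinase-like proteins, lectins, lipid uptake and factors of matrix turnover, and proteins of the suppressor of cytokine signalling (SOCS) family damp the signal.

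The promoters of the strongest risers that hold such a palindrome are printed here because they show where a STAT-type sequence lies relative to the start of transcription. Sequences are from RefSeq on GRCm38.p6 and run from 250 bases before to 50 bases after the annotated start. TTCNNNGAA and the same letters with 4 bases in the spacer in place of 3 were searched. Each reads the same on both strands, and matches are in capitals. Of the 24 largest increases, 18 had a promoter in the table and 4 of those held a match. Cish (chr9:107296409-107296708, plus strand) held 2 adjacent matches of the 3-base form, beginning at the first base and the 12th base after the start. Chil3 (chr3:106167515-106167814, minus strand) held 1 match of the 3-base form that began 172 bases before the start. Awat1 (chrX:100571997-100572296, plus strand) and Plekhf1 (chr7:38227945-38228244, minus strand) each held 1 match of the 4-base form, which began 40 bases after and 119 bases before the start.
Cish: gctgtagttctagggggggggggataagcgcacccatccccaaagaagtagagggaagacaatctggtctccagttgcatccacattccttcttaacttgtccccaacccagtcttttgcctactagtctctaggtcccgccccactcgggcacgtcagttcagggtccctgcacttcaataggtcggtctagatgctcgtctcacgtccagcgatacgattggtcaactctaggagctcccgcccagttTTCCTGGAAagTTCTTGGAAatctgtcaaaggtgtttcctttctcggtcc
Chil3: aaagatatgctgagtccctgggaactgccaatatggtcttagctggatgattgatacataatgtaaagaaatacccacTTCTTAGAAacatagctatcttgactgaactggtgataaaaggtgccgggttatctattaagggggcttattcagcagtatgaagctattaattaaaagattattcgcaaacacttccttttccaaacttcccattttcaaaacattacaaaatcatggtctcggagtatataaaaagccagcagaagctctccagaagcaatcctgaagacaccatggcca
Awat1: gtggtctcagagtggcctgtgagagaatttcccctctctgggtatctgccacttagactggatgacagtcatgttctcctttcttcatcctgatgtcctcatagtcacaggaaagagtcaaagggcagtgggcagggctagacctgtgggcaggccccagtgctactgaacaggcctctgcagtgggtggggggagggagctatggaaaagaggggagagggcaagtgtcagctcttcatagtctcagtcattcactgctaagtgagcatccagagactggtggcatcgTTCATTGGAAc
Plekhf1: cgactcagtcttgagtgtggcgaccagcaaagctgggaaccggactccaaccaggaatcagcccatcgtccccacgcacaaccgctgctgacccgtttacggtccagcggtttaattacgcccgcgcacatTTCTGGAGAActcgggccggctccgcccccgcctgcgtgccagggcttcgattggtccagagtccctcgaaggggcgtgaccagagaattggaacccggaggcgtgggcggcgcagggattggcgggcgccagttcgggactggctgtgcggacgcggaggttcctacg
These letters are common. The 3-base form occurred in 8.30% and the 4-base form in 6.95% of all 32851 promoters of this length in the table. Of the 8906 tested genes with a promoter there, 13.8% held either form, against 16.3% of 1439 genes called higher with IL-13, 21.3% of the 155 called at least 2-fold higher, 11.7% of 1621 called lower and 15.85% of the 82 called at least 2-fold lower. A match is a description of the window and not a measured binding site.

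The 6 libraries held 9.26 to 11.62 M reads, recovered from the TPM values, and 11940 to 12098 genes at 1 TPM or more. Across the tested genes, Pearson correlations of log2(TPM + 1) were 0.980 to 0.983 between Untreated libraries, 0.983 to 0.985 between rIL-13 libraries and 0.968 to 0.971 between the groups. In the whole series 3 libraries were treated as standing apart from their groups: Untreated replicate 1, rIL-17A replicate 2 and rIL-33/rIL-13/rIL-17A replicate 2. Values are given here for the first only. The index of dispersion of the first, which is 1 where libraries differ by counting noise alone, was 6.23 and 6.42 against the other 2 Untreated libraries, 1.48 between those 2 and 1.87 to 1.89 between rIL-13 libraries. Of 16 markers of alveolar macrophages, 15 passed the filter, 1 of them only because IL-13 groups reached the minimum level. With IL-13, 9 of the 15 were called higher and 2 lower (Siglecf and Cd68). Per transcript length, untreated cells had 3157 to 3404 TPM of the integrin gene Itgax, 2747 to 2993 of Cd68 and 315.8 to 327 of Siglecf, but at most 1.38 of the scavenger receptor gene Marco and at most 0.423 of Car4. Markers of other cell types are given next per gene span, so they cannot be set against those values, and their sums serve only to compare libraries. Of 8 markers of T and B lymphocytes 7 were not analysed here. The other, Cd4, was at no more than 0.289 TPM in any of the 6 libraries (at most 0.74 per transcript length). Of 8 fibroblast markers 4 were measured, and they summed to 4.76 to 6.78 TPM untreated and 2.57 to 2.98 with IL-13, most of it Pdgfra. Per transcript length Pdgfra alone was at 10.6 to 14.6 TPM untreated and 4.76 to 6.29 with IL-13. The 4 of 12 granulocyte and mast cell markers that were measured summed to 140.4 to 167 TPM untreated and 81.4 to 97.8 with IL-13. Most of this sum was S100a8, which per transcript length was at 37.4 to 47.5 TPM untreated, against at most 9.18 for Csf3r. Of the 4, 3 fell (Cxcr2, Csf3r and S100a8, the last named after its values were seen). The 7 of 10 epithelial markers that were measured summed to 21.4 to 23.1 and 47.6 to 49.6 TPM, and the increase was Cdh1 while Epcam, Scgb1a1 and Hopx fell (the last 2 named after their values were seen). In bulk RNA, a change in the share of some cells cannot be told apart from a change in RNA per cell.

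IL-13 alone raised 1857 genes (14.1% of those tested) and lowered 2075 (15.7%), 29.8% in all, at an adjusted p below 0.05. At least a 2-fold change on log2(TPM + 1) was seen in 230 of the first (1.74% of tested genes) and 138 of the second (1.04%). The typical called change was small, with a median log2 change of 0.38 among risers and -0.37 among fallers, against -0.03 for all tested genes. Large changes were mostly increases: 56 genes rose and 18 fell by 2 or more on the log2 scale, and 19 rose and 0 fell by 3 or more. All 3 libraries of 1 group lay beyond all 3 of the other for 2608 genes on the higher side (19.7%) and 2944 on the lower side (22.3%). The counts of gene lists given next are to be read against these shares. Without Untreated replicate 1, 1544 genes were called higher and 2123 lower.

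**Figure D1:**
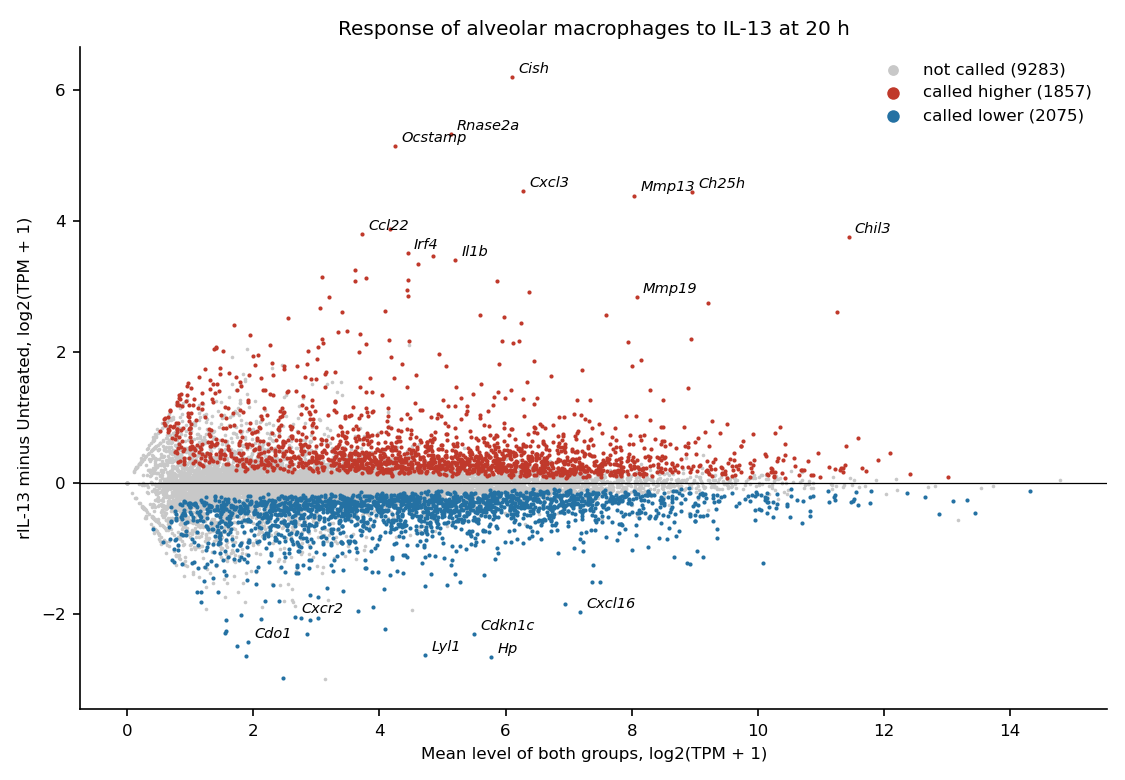
Each point is 1 of the 13215 tested genes, with the mean level of both groups on the x axis and the log2(TPM + 1) difference between rIL-13 and Untreated on the y axis; red points were called higher (1857), blue points lower (2075) and grey points were not called. Increases reach past 6 (Cish) while no called decrease passes 3.

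The largest increase was in a feedback gene of cytokine signalling. Cish, which encodes a SOCS-family inhibitor of cytokine receptors, stood at 0.777, 1.73 and 0.298 TPM in the 3 untreated libraries and 142, 143 and 119.8 TPM with IL-13, the largest increase of all (log2 change 6.20, SE 0.20). Socs1, an inhibitor of Janus kinases, went from 3.51, 6.78 and 6.42 to 27, 30.8 and 26.2 TPM (2.18), Socs3 from 2.65, 1.96 and 3.81 to 11.4, 10.2 and 9.23 TPM (1.59) and Socs2 from 1.29, 1.34 and 1.77 to 5.74, 5.83 and 5.18 TPM (1.42). These were the 4 of 7 tested SOCS genes that rose, and none fell. The list's median log2 change was 1.42, and 0.79 with no filter or 0.76 on transcript length, where 8 genes were tested. The receptor and kinase genes moved far less: of 20 tested, 4 rose and 3 fell (background 14.1% and 15.7%), with a median of -0.09. The risers were Jak2 (0.46), Stat5a (0.35) and the phosphatase genes Ptpn2 (0.34) and Ptpn1 (0.31). Ptpn6, which encodes the phosphatase SHP-1, fell by 0.49, Stat3 fell by 0.36 and the receptor gene Il4ra fell by 0.33. Il13ra1 (12.2, 14.7 and 14.01 TPM untreated, 13.4, 11.97 and 12.3 with IL-13) and Stat6 (133, 149.7 and 158 and 130.5, 135 and 126) did not pass the test (log2 change -0.11, adjusted p = 0.275, and -0.17, adjusted p = 0.186). The call of Ptpn1 was lost without Untreated replicate 1 (adjusted p = 0.0534) and that of Il4ra without Untreated replicate 3 (adjusted p = 0.0705). With TPM recomputed on transcript length 6 of the list fell, and without the 3 libraries of the series treated as standing apart 9 did. Without Untreated replicate 1 it was 5, and without the 3 libraries 1 SOCS gene was called lower.

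Transcription factor genes known from type 2 responses split. Of 31 tested, 13 rose and 5 fell. Irf4 (chromosome 13, bases 30749226 to 30766976, GRCm38), which encodes a factor needed for alternative activation, rose from 2.49, 2.79 and 2.27 to 40.97, 39 and 37.2 TPM (log2 change 3.51, SE 0.12). The AP-1 family gene Batf3 rose from 4.36, 3.77 and 4.36 to 23.98, 19.6 and 20.8 TPM (2.12), Myc from 36.7, 39.6 and 45.3 to 118, 125 and 117 TPM (1.55) and Pparg, the fatty acid sensing receptor of alveolar macrophages, from 8.499, 7.91 and 8.29 to 23.6, 22.2 and 21.98 TPM (1.35). Tfec (1.69), Nfil3 (1.40), Klf4 (1.32) and Egr2 (0.60) also rose. The 5 that fell were Bcl6 (by 0.31), Bhlhe41 (by 0.21), Rela and, named after their values were seen, Cebpd and Id3. Among 15 tested lineage factors of myeloid cells, 5 rose and 6 fell. Lyl1, a basic helix-loop-helix factor of blood stem and progenitor cells, fell by 2.62 and its partner gene Lmo2 by 0.56. Irf8, which guides monocyte and dendritic cell fate, dropped from 104, 114 and 106 to 61.5, 63.6 and 59.5 TPM (fell by 0.80), and Cebpa fell by 0.26, whereas Spi1, the gene of PU.1, rose by 0.16 and Irf5 by 0.43. The other 3 that rose were Nfe2, Tfeb and Runx1, named after their values were seen. Without rIL-13 replicate 1 or rIL-13 replicate 2 only 3 of this list rose, and Nfe2 and Runx1 were lost without the first (adjusted p = 0.208 and 0.0841).

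**Figure D2:**
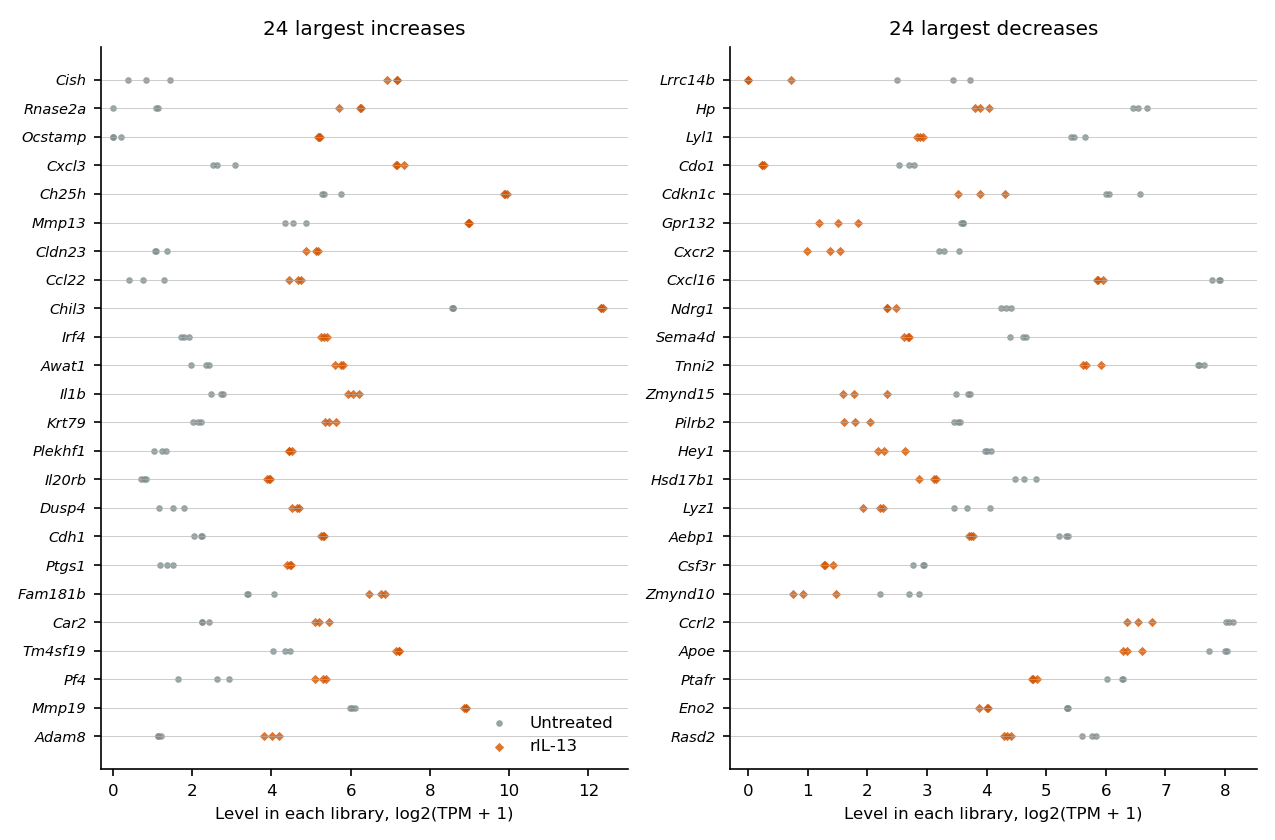
Level on log2(TPM + 1) in each of the 3 Untreated (grey circles) and 3 rIL-13 (orange diamonds) libraries for the 24 genes with the largest called increases (left) and decreases (right). The genes were chosen so that the groups do not overlap; the gap is widest for Cish, where untreated cells lie below 2 and treated cells near 7.

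Several chemokine genes rose. Of 11 tested CC chemokine genes (with Cxcl16), 5 rose: Ccl22, Ccl17, Ccl24, Ccl6 and Ccl9. Of the 11, 3 were tested only because IL-13 groups reached the minimum level, and with the filter set on the 6 libraries 4 of 9 rose. Ccl22, a ligand of the Th2 cell receptor CCR4, went from 0.688, 1.43 and 0.330 to 20.8, 24.3 and 25.7 TPM (3.80, SE 0.22). Ccl17, the other CCR4 ligand, was listed at 0 in all 3 untreated libraries and at 5.06, 1.75 and 1.29 TPM with IL-13, and the eotaxin gene Ccl24 at 0 and 0.572, 1.48 and 0.981 TPM. The call of Ccl17 was lost without rIL-13 replicate 1 (adjusted p = 0.0613). Ccl6 rose from 193, 178 and 157 to 861, 800.3 and 759 TPM (2.19) and Ccl9 from 103, 125 and 117 to 416, 383 and 395 TPM (1.79). Ccl3 was 102, 102 and 117 TPM untreated and 97.7, 91.6 and 94.9 with IL-13, and did not pass. Cxcl16, a membrane-bound chemokine and lipoprotein scavenger, fell from 218, 239 and 236 to 61.2, 57.1 and 56.9 TPM (log2 change -1.97). All 4 CXC genes that rose, of 5 tested, lie in a cluster of neutrophil and platelet chemokines on chromosome 5, between bases 90772435 and 90905938: Cxcl3 went from 4.81, 7.505 and 5.19 to 161, 139 and 142 TPM (4.46), Pf4 from 6.64, 5.12 and 2.12 to 40.3, 33.1 and 38.6 TPM (2.86), Cxcl2 from 24.9, 35.3 and 39.98 to 82.2, 69.6 and 77.8 TPM (1.20) and Cxcl1 from 11.8, 14.5 and 18.3 to 26.1, 35.4 and 38.01 TPM (1.11).

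Receptors for chemoattractants moved in both directions, with 7 of 19 tested higher, 10 lower and a list median of -0.70. That median was -0.21 with the filter set on the 6 libraries (17 tested), -0.18 with no filter (24 tested) and -0.30 on transcript length (16 tested). Cxcr4, which holds leukocytes in tissues through CXCL12, dropped from 638, 657 and 665 to 278, 280.2 and 285 TPM (log2 change -1.21, SE 0.03). Gpr132 went from 11.1, 10.9 and 11.2 to 1.28, 1.86 and 2.58 TPM (-2.08), Ccrl2 from 266, 257 and 279 to 108, 80.9 and 92.3 TPM (-1.51) and Ptafr, the platelet-activating factor receptor, from 63.6, 76.7 and 76.4 to 27.9, 26.5 and 26.1 TPM (-1.39). The neutrophil receptor genes Cxcr1 (named after its values were seen, 744, 889 and 866 to 468, 479 and 452 TPM), Cxcr2 (8.25, 10.6 and 8.75 to 1.59, 1.91 and 0.982 TPM) and Csf3r (5.81, 6.65 and 6.69 to 1.701, 1.44 and 1.43 TPM) fell as well. Cxcr2 and Csf3r are 2 of the 4 measured granulocyte markers, whose summed level fell as given above, and the part of such cells in these values was not tested. The formyl peptide receptor gene Fpr2 rose from 24.3, 28.9 and 24.5 to 61.6, 56.8 and 46.8 TPM (1.05) and Gpr35 from 1.42, 1.12 and 1.08 to 4.13, 4.57 and 4.27 TPM (1.27).

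The interleukin-1 family was raised at several points. Il1b (chromosome 2, bases 129364570 to 129371139) went from 5.598, 4.59 and 5.83 to 72.6, 59.9 and 65.5 TPM (3.40, SE 0.12), Il1a from 77.5, 80.3 and 82.3 to 164, 164 and 158 TPM (1.01) and Il1rn, the receptor antagonist, from 109.7, 133 and 132 to 193, 192 and 206 TPM (0.66). Their receptor genes Il1r1 (0.547, 0.464 and 0.558 to 2.800, 2.51 and 2.496 TPM) and Il1rap (0.51) rose too. Of 15 tested genes of this list 6 rose, and the 2 that fell were Il18 (29.7, 25.6 and 25.5 to 9.98, 11 and 9.23 TPM, -1.33) and the inflammasome sensor gene Nlrp3 (-0.49). Il20rb, a receptor subunit for cytokines of the IL-20 group, rose from 0.795, 0.635 and 0.728 to 14.4, 13.8 and 14.7 TPM (3.15). Tnf was 118, 137 and 127 TPM untreated and 120.0, 116 and 132 with IL-13 and did not pass (adjusted p = 0.724). Of 22 tested Tnf and NF-kB genes 7 rose and 7 fell, among them the inhibitors Tnip3 (0.918, 0.751 and 0.770 to 6.61, 7.28 and 6.61 TPM, 2.11) and Tnfaip3 (0.57) on the higher side and Tnfrsf1b (-0.71), Nfkbiz (-0.86) and Rela (-0.40) on the lower.

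Alternative activation markers rose almost as a group, 18 of 22 tested with 0 lower and a median log2 change of 1.26, although 3 of them were tested only because IL-13 groups reached the minimum level. Chil3, the gene of the chitinase-like protein Ym1, had 378, 383 and 384 TPM untreated and 5102, 5081 and 5317 TPM with IL-13 (3.76, SE 0.04). Its near-identical neighbour Chil4 was listed at 0 untreated and at 2.03, 1.95 and 1.695 TPM with IL-13, and reads could be shared between the copies, so the split is uncertain. Tgm2, a protein-crosslinking transglutaminase, rose from 110.5, 127 and 125 to 436, 457 and 445 TPM (1.88) and the mannose receptor gene Mrc1 from 78.7, 93.03 and 93.5 to 149.7, 156 and 143 TPM (0.75). The classic markers Arg1 and Retnla were detected at a few TPM at most. Arg1 rose from 0.0857, 0 and 0.0822 to 1.45, 1.13 and 1.66 TPM (1.19). Retnla was listed at 0 in 5 of the 6 libraries and at 0.932 TPM in rIL-13 replicate 1, and did not pass (adjusted p = 0.469). Of the eosinophil-associated ribonucleases, Ear2 rose from 792, 625 and 644 to 4628, 4138 and 3807 TPM (2.61) and Rnase2a from 0, 1.14 and 1.19 to 75.3, 74.8 and 51.4 TPM (5.33). These genes are near-identical copies and their values are uncertain.

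Genes of cell fusion, adhesion and proteolysis followed. Ocstamp, a membrane protein needed for macrophages and osteoclasts to fuse, was at 0, 0 and 0.152 TPM in untreated libraries and 35.9, 36.7 and 35.4 TPM with IL-13. Its relative Dcstamp rose from 3.500, 2.85 and 3.29 to 12.04, 13.2 and 11.7 TPM (1.66), Tm4sf19 from 15.4, 19.1 and 21.1 to 141, 149 and 147 TPM (2.92) and Acp5, the acid phosphatase of osteoclasts, from 427, 420.2 and 411 to 741, 712 and 719.6 TPM (0.79). The list as a whole was mixed, with 7 of 22 tested higher and 8 lower. Ctsk (-0.31), the osteoclast factor gene Nfatc1 (-0.37) and Itgb5 (-1.13) were among those that fell. Of 19 tested adhesion genes typical of epithelium only 3 rose, and 8 fell. E-cadherin (Cdh1, chromosome 8, bases 106603351 to 106670246) went from 3.16, 3.78 and 3.69 to 38.3, 38.95 and 36.98 TPM (3.11), the claudin gene Cldn23 from 1.14, 1.58 and 1.09 to 28.4, 34.96 and 34.2 TPM (3.88) and the desmosomal plakophilin gene Pkp2 from 2.28, 2.39 and 2.56 to 11.4, 11.8 and 11.8 TPM (1.89). Epcam (-0.65), F11r (-0.75) and Ocln (-0.57) fell. Among 12 tested metalloproteinase genes 5 rose. Mmp13 (chromosome 9, bases 7272514 to 7283331), a collagenase, had 19.2, 22.2 and 28.4 TPM untreated and 502, 502 and 501 TPM with IL-13 (4.39). Mmp19 rose from 62.5, 67.5 and 64.7 to 464, 477 and 477 TPM (2.85), Mmp8 from 22.7, 25.01 and 23.8 to 58.1, 57.98 and 73.5 TPM (1.36), Adam8 by 2.84 and the macrophage elastase gene Mmp12 by 0.57. Mmp14 (-1.03) and the inhibitor gene Timp2 (-0.81) fell, as did Adam17, named after its values were seen. Of 23 tested repair factors and matrix genes, 11 rose and 9 fell: Igf1 (6.02, 6.16 and 6.17 to 22.1, 20.8 and 19.3 TPM), Fn1 (3.46, 4.87 and 4.05 to 20.4, 20.4 and 17.4) and Hbegf (0.676, 0.536 and 1.297 to 4.58, 5.68 and 5.71) were higher, and Spp1, the osteopontin gene, lower (756, 774 and 759.7 to 369.8, 335 and 351).

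Genes of lipid mediator synthesis moved in both directions. Ptgs1, which encodes cyclooxygenase-1, rose from 1.59, 1.87 and 1.29 to 21.5, 20.1 and 20.97 TPM (3.09). The thromboxane synthase gene Tbxas1 rose from 3.03, 2.94 and 2.81 to 9.43, 8.799 and 8.41 TPM (1.33) and the prostacyclin receptor gene Ptgir from 83.04, 97.3 and 86.1 to 409.8, 407 and 382 TPM (2.16). Hpgds, which makes prostaglandin D2, fell from 23.8, 25.8 and 23.04 to 10.1, 11.1 and 9.84 TPM (-1.15). In the leukotriene branch Alox5, the first enzyme, fell from 10.01, 9.78 and 9.96 to 5.59, 5.37 and 4.901 TPM (-0.80), while Ltc4s, which makes leukotriene C4, rose from 61.9, 46 and 46.8 to 142, 126 and 114 TPM (1.30). Of the 22 tested genes of the pathway 11 rose and 7 fell.

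Lipid handling showed a rise in synthesis and a mixed picture in efflux. Of 37 tested genes of sterol and fatty acid synthesis 20 rose and 2 fell (Insig2 and Fads1, named after their values were seen), with a median of 0.25. Both of these calls were lost without rIL-13 replicate 1 (adjusted p = 0.0608 and 0.132), and 5 genes fell without rIL-33/rIL-13/rIL-17A replicate 2. The desaturase gene Scd2 went from 190.1, 219 and 222 to 512, 518 and 491 TPM (1.27), Scd1 from 22.7, 24.8 and 26.1 to 58.4, 59.8 and 52.6 TPM (1.18) and Fdps, of the isoprenoid branch, from 216, 219 and 216 to 360.1, 334 and 342 TPM (0.67), whereas Srebf2, the gene of the pathway's main regulator, did not pass (45.1, 55.4 and 55.5 and 52.05, 55.1 and 53.02 TPM, adjusted p = 0.799). Of 29 genes of efflux, scavenging and storage 7 rose and 13 fell. Ch25h, which makes 25-hydroxycholesterol, went from 39.4, 52.6 and 37.8 to 977, 946 and 934 TPM (4.44), the scavenger receptor gene Cd36 from 146, 153 and 156 to 270.3, 276 and 276 TPM (0.85) and Fabp4 from 228, 201 and 204 to 416, 417 and 401 TPM (0.96). Apoe fell from 255, 261 and 212 to 96.8, 77.3 and 80.7 TPM (-1.50), Fabp5 by 0.50 and the efflux pump gene Abca1 by 0.43, and Abcg1 (0.08) and the lipid droplet gene Plin2 (0.06) did not pass. The call of Abca1 was lost in a fit of the 6 libraries alone (adjusted p = 0.0518). Awat1, an acyltransferase that makes wax esters, rose from 4.06, 2.94 and 4.402 to 47.7, 54.6 and 52.8 TPM (3.47). Of 46 tested genes of fatty acid oxidation and peroxisomes 18 rose and 3 fell (Pex10, Pex7 and Echs1, named after their values were seen). Without rIL-13 replicate 1 none of these 3 was called (adjusted p = 0.226, 0.0726 and 0.0507). The calls of Pex10 and Echs1 were also lost with median-ratio scaling (adjusted p = 0.0636 and 0.187). By voom on recovered reads they were lost too (adjusted p = 0.0643 and 0.171). The peroxisomal transporter gene Abcd2 stood out, from 20.4, 22.2 and 21.4 to 102, 101.4 and 96.6 TPM (2.17), while Cpt1a, the entry step for mitochondrial oxidation, was 33.9, 36.4 and 38.7 and 38.2, 37.9 and 37.3 TPM and did not pass (adjusted p = 0.664).

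Most genes of the citric acid cycle, and a smaller share of those of the respiratory chain, rose by small amounts. Of 19 tested enzymes and carriers of the citric acid cycle 17 rose and 0 fell, with a median log2 change of 0.26. Idh3a went from 34, 35.5 and 33.8 to 58.2, 56.7 and 54.4 TPM (0.70, SE 0.04), Mdh2 from 183, 182 and 181 to 275, 260.3 and 268 TPM (0.55) and citrate synthase (Cs) from 92.1, 103 and 104 to 125, 127 and 124 TPM (0.33). Of 87 tested genes of the respiratory chain 35 rose, 2 fell and 50 were not called, and with median-ratio scaling 25 rose. All 35 were nuclear genes: 14 of 36 tested for complex I rose, 4 of 4 for complex II, 4 of 9 for complex III, 5 of 10 for complex IV and 8 of 15 for ATP synthase, with medians of 0.10 to 0.19. Atp5b rose from 1282, 1335 and 1323 to 1754, 1699 and 1719 TPM (0.39). The 2 subunit genes that fell were mt-Co1 and, named after its values were seen, Ndufa1. The call of Ndufa1 was lost without Untreated replicate 1 (adjusted p = 0.136), with median-ratio scaling (adjusted p = 0.194) and elsewhere. Of the 13 genes encoded by mitochondrial DNA none rose and only mt-Co1 fell (22150, 21070 and 20770 to 18980, 20410 and 19390 TPM, -0.12). That call was lost with median-ratio scaling (adjusted p = 0.36) and without Untreated replicate 1 (adjusted p = 0.117). The median of the 13 was -0.11, and copies of mitochondrial sequence in the nucleus make their counts uncertain. In the pentose phosphate pathway and other sources of NADPH 9 of 15 rose and 0 fell, among them Idh2 (55.3, 58.3 and 56.8 to 87.3, 83.5 and 83.9 TPM, 0.57), Prps1 (0.75) and the entry enzyme gene G6pdx (0.46).

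Glycolytic genes moved both ways. Of 31 tested genes 14 rose and 7 fell, with a median of 0.00. Ldha, which makes lactate, rose from 414, 418 and 423 to 813, 797 and 820.2 TPM (0.95), Pgk1 from 114, 119 and 120.0 to 217, 205 and 212 TPM (0.84) and the enolase gene Eno1 from 217, 214 and 222 to 366, 354 and 374 TPM (0.74). The other enolase gene, Eno2, fell from 39.6, 40.4 and 39.9 to 13.6, 15.3 and 15.1 TPM (-1.39). The lactate transporters likewise parted, with Slc16a1 higher (0.70) and Slc16a3 lower (-0.37). Hk2 rose (18.6, 23.3 and 22.1 to 33.96, 36.3 and 34.9 TPM), and Hk1 did not pass (0.00, adjusted p = 0.998).

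**Figure D3:**
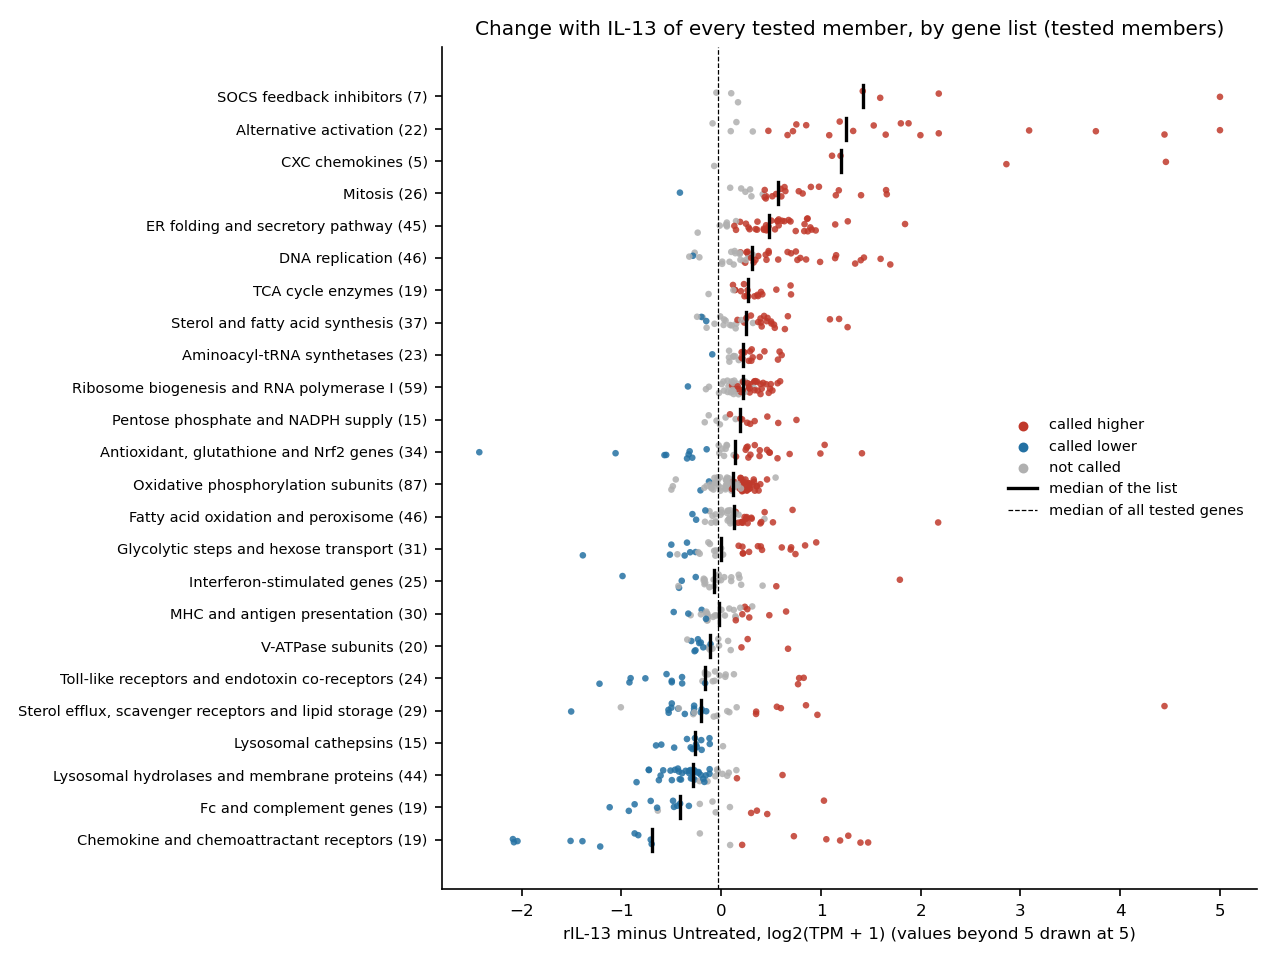
Every tested member of 24 gene lists at its log2(TPM + 1) change between rIL-13 and Untreated on the x axis (red called higher, blue called lower, grey not called; thick bars are list medians, and the dashed line is the median of all tested genes, -0.03; values beyond 5 are drawn at 5). The protein folding, citric acid cycle and SOCS lists lie to the right, the lysosomal and Fc receptor lists to the left, and most shifts in the metabolic lists are below 1.

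Of 45 tested genes of folding and export in the endoplasmic reticulum 38 rose and 0 fell, with a median log2 change of 0.47. Pdia4, a disulfide isomerase, went from 78.03, 83.7 and 82.7 to 197, 201 and 195 TPM (1.27, SE 0.05) and the chaperone gene Hspa5, which encodes BiP, from 2218, 2414 and 2399 to 3795, 3785 and 3796 TPM (0.69). Creld2 (0.95), Dnajb9 (0.91), Manf (0.89) and Sdf2l1 (0.86) rose as well, and Xbp1, the gene of a factor that drives such genes, by 0.28. The stress factor gene Ddit3 did not pass (40.96, 45.5 and 45.5 TPM untreated, 52.1, 49.2 and 52.2 with IL-13, adjusted p = 0.0522), nor did Trib3 (0.00). Of 16 tested genes of the Atf4 stress response 7 rose and 0 fell, among them Herpud1 (0.87) and Atf5 (152, 149 and 168 to 263, 252 and 251 TPM, 0.70).

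Genes of protein synthesis rose by similar amounts. Of 23 tested aminoacyl-tRNA synthetase genes 15 rose and 1 fell (Sars, named after its values were seen), with a median of 0.22. The call of Sars was lost without Untreated replicate 2 (adjusted p = 0.163), with median-ratio scaling (adjusted p = 0.289), by voom on recovered reads (adjusted p = 0.342) and elsewhere. Yars went from 16.8, 17.7 and 18.5 to 27.3, 27.8 and 27.1 TPM (0.61) and Vars from 46.4, 55.6 and 51.3 to 75.6, 79.9 and 75.5 TPM (0.59). Of 59 tested genes of ribosome assembly 31 rose and 1 fell (Mrto4, -0.33; 3 without Untreated replicate 1), with Grwd1 (0.59), Rrs1 (0.57) and Dkc1 (0.50) among those with the smallest p. In serine and one-carbon metabolism Psat1 rose from 9.75, 9.82 and 9.95 to 23.3, 22.1 and 24.2 TPM (1.16), Phgdh from 38.7, 44.5 and 44.5 to 83.04, 81.8 and 79.7 TPM (0.92) and Mthfd2 from 24.3, 25.1 and 26.3 to 45.7, 45.5 and 47.8 TPM (0.85), part of 7 of 16 tested that rose. In that list 2 fell, Got1 and, named after its values were seen, Got2. Among 19 tested amino acid transporters 8 rose and 2 fell, with a median of -0.01. Slc7a2, which carries arginine, rose from 144, 183 and 182 to 451, 470.5 and 439.6 TPM (1.42). The polyamine genes Odc1 (0.57), Srm (0.66) and Eif5a (1098, 1089 and 1090 to 1699, 1610 and 1656 TPM, 0.60) rose, as 9 of 17 tested did. The 4 that fell were Sat1, which breaks polyamines down (-0.27), and, named after their values were seen, Smox, Atp13a2 and Oaz2.

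Most tested genes of DNA replication and mitosis rose, while cyclins, kinases and inhibitors of the cell cycle were split. Of 46 tested genes of DNA replication 28 rose and 1 fell (Rfc2, named after its values were seen), and of 26 tested mitosis genes 19 rose and 1 fell (Cdc25b, likewise). Of these members 3 and 6 were tested only because IL-13 groups reached the minimum level, and with no filter 32 of 39 mitosis genes rose (31 of 36 on transcript length). Mcm5, of the replicative helicase, went from 5.62, 7.42 and 6.84 to 21.3, 18 and 17.9 TPM (1.40, SE 0.09), Rrm2, which supplies deoxynucleotides, from 3.91, 2.96 and 4.097 to 15.2, 13.9 and 12.9 TPM (1.70) and Top2a from 0.773, 0.622 and 1.06 to 3.79, 3.99 and 3.88 TPM (1.43). The proliferation marker Mki67 had 1.23, 1.79 and 1.18 TPM untreated and 6.76, 6.67 and 6.17 TPM with IL-13 (1.66). Pcna, the sliding clamp of replication, was at 505, 508 and 486 and 521, 495 and 494 TPM and did not pass (adjusted p = 0.868). Of 26 tested cyclins, kinases and inhibitors 8 rose, 6 fell and 12 were not called. The cyclin gene Ccnd2 rose from 12.1, 14.1 and 13.1 to 84.4, 83.3 and 78.04 TPM (2.56), and the inhibitor gene Cdkn1c, which encodes p57, fell from 65.5, 63.5 and 93.7 to 10.5, 18.7 and 13.9 TPM (-2.30). Cdkn1a, which encodes p21, did not pass (0.15, adjusted p = 0.0933).

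Lysosomal genes fell as a broad group by modest amounts. Of 15 tested cathepsin genes 14 fell and 0 rose, with a median of -0.26. Ctsd, the aspartic protease of lysosomes, went from 8774, 8485 and 8880 to 6133, 6310 and 6408 TPM (-0.47, SE 0.03), Ctsb from 3133, 3096 and 3161 to 2528, 2539 and 2627 TPM (-0.29) and Ctsk from 3917, 3808 and 3856 to 3048, 3128 and 3191 TPM (-0.31). The exception was Ctss, the protease that trims the invariant chain in antigen presentation, at 715, 682 and 687 and 718, 694 and 697 TPM (adjusted p = 0.732). Of 44 tested lysosomal hydrolases and membrane proteins 33 fell and 2 rose, with a median of -0.28. Hexa fell from 477, 477 and 476 to 346, 344 and 346 TPM (-0.46) and Lamp1 from 1556, 1551 and 1598 to 1250, 1250 and 1264 TPM (-0.32). The acid lipase gene Lipa was among those that rose (0.16). Of 20 tested subunits of the proton pump that acidifies lysosomes 3 rose (Atp6v0a1 by 0.67, Atp6v1b2 and Atp6v0d2) and 9 fell. With median-ratio scaling, which set the median change of all genes near 0, 11 of the cathepsins, 31 of the hydrolases and 6 of the pump subunits fell.

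Sensors of microbes and immune complexes leaned lower. Of 24 tested Toll-like receptor genes and partners 10 fell and 3 rose. Cd14, the endotoxin co-receptor, dropped from 1489, 1516 and 1545 to 661, 613 and 678 TPM (-1.22, SE 0.04), Tlr13 from 169, 190.3 and 190.0 to 107, 108 and 108 TPM (-0.76) and Tlr2 from 411, 468 and 458 to 322, 318 and 306 TPM (-0.50). Tlr4 rose from 5.96, 6.86 and 7.59 to 12.7, 12.9 and 11.5 TPM (0.78), as did Tlr8 and Tlr12, named after their values were seen. The call of Tlr12 was lost without Untreated replicate 1 (adjusted p = 0.101). Other settings lost it too, such as leaving out rIL-13 replicate 2 (adjusted p = 0.111) or a pseudocount of 0.1 (adjusted p = 0.0754). Of 19 tested Fc receptor and complement genes 10 fell and 4 rose, with a median of -0.41 (-0.21 with no filter, where 25 were tested). The activating receptor genes Fcgr1 (-1.12), Fcgr3 (-0.44) and Fcgr4 (-0.41) and their shared chain Fcer1g (726, 680.3 and 646 to 504, 476 and 487 TPM, -0.48) fell, and the inhibitory Fcgr2b rose (30.5, 29.6 and 30.02 to 37.2, 36.2 and 38.2 TPM, 0.30). Complement C3 rose from 161, 188 and 180.2 to 365, 364 and 353 TPM (1.03), as did Cfp and Itgax, whereas C5ar1 (-0.87) and C3ar1 (-0.71), receptors of complement fragments, fell. The call of Cfp was lost without any 1 of the Untreated libraries (adjusted p = 0.0825 to 0.094). It was also lost without rIL-13 replicate 2 (adjusted p = 0.167), with median-ratio scaling (adjusted p = 0.0529), by voom on recovered reads (adjusted p = 0.068) and elsewhere. C-type lectins parted: of 18 tested 8 rose and 5 fell. The beta-glucan receptor gene Clec7a rose from 909.7, 911 and 914 to 1562, 1533 and 1541 TPM (0.76), and Clec12a (5.02, 4.56 and 4.28 to 0.512, 0.245 and 0.450 TPM, -2.00), Clec4e (-0.89) and Clec4d (-0.76) fell, as did Klra2 and Colec12, named after their values were seen.

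Most antigen presentation and interferon genes were not called, 19 of 30 and 19 of 25 tested, against 14.1% higher and 15.7% lower among all genes. Of the 30 genes of antigen presentation 7 rose (23.3%) and 4 fell (13.3%), with Cd274, which encodes PD-L1, at 60.97, 68.4 and 67.6 TPM untreated and 108, 102 and 99.7 with IL-13 (0.65) and the class I gene H2-D1 lower (-0.33), as were B2m and, named after their values were seen, Icosl and Tapbp. The call of B2m was lost with median-ratio scaling (adjusted p = 0.171) and by voom on recovered reads (adjusted p = 0.125). Icosl lost its call without Untreated replicate 1 (adjusted p = 0.163), in a fit of the 6 libraries alone (adjusted p = 0.18) and by voom (adjusted p = 0.058). Many further settings lost it too. On transcript length 8 genes fell. The class II gene H2-Ab1 did not pass (-0.14, adjusted p = 0.572). Of the 25 interferon-stimulated genes 2 rose, Ifi204 (1.82, 1.48 and 1.28 to 7.16, 8.596 and 7.46 TPM, 1.79) and Zbp1 (0.55), and 4 fell, Gbp3, Irgm1, Irf7 and Dhx58, so both shares were near or below those of all genes. The calls of Irf7 and Dhx58 were lost without Untreated replicate 1 (adjusted p = 0.104 and 0.0828). Both were also lost by voom on recovered reads (adjusted p = 0.122 and 0.0736). Without rIL-13 replicate 2 both were lost as well (adjusted p = 0.0909 and 0.097), and only 2 of the list fell. Isg15 (0.41, adjusted p = 0.176) did not pass.

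Iron, haem and redox genes changed in both directions. The transferrin receptor gene Tfrc rose from 8.71, 11.04 and 12.1 to 35.6, 36.6 and 33.4 TPM (1.65) and ferritin heavy chain, Fth1, fell from 13430, 12420 and 12800 to 9124, 9435 and 9764 TPM (-0.45). Hp, the gene of haptoglobin, which captures free haemoglobin, dropped from 92.5, 102 and 86.5 to 15.4, 13.01 and 13.8 TPM (-2.65). Of 34 tested antioxidant and glutathione genes 17 rose and 9 fell. Nqo1, a quinone reductase, went from 2.73, 2.34 and 2.42 to 8.91, 7.701 and 8.29 TPM (1.41), Gclm, which makes glutathione, from 29.6, 31.5 and 32.8 to 61.2, 65.5 and 63.2 TPM (0.99) and the cystine carrier Slc7a11 from 3.905, 5.55 and 5.45 to 10.9, 11.9 and 10.7 TPM (1.04). Nfe2l2, which encodes Nrf2, the factor that controls many of these genes, fell by 0.32. Cdo1, which removes cysteine by oxidation, dropped from 5.46, 4.797 and 5.902 to 0.176, 0.182 and 0.201 TPM (-2.42).

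The remaining large decreases were of varied function. Ndrg1, a stress-responsive gene, went from 17.98, 19.1 and 20.4 to 4.04, 4.03 and 4.59 TPM (-1.95), the semaphorin gene Sema4d from 20.1, 24.2 and 23.4 to 5.49, 5.101 and 5.43 TPM (-1.89), the Notch target Hey1 from 15.9, 14.7 and 15 to 3.88, 3.55 and 5.22 TPM (-1.65) and the troponin gene Tnni2 from 199, 185 and 188 to 59.8, 49.6 and 48.1 TPM (-1.84). Siglecf, a surface lectin that marks alveolar macrophages, fell from 528, 530.1 and 536 to 314, 306 and 288 TPM (-0.81). Of 15 tested markers of these cells 9 rose, and Siglecf was 1 of the 2 that fell. The largest value on this side belonged to Lrrc14b, at 9.83, 4.63 and 12.2 TPM untreated and at most 0.651 TPM with IL-13. It overlaps Ccdc127 on the other strand, so its reads are uncertain. At the extreme, 9 genes, 1 of them protein-coding (A030005L19Rik), were listed at 0 in all rIL-13 libraries and at 1 TPM or more in all untreated ones, and 6 of them were called. The call of A030005L19Rik was lost when any of the 6 libraries was left out (adjusted p = 0.076 to 0.0795). The opposite pattern was seen in 9 genes, all called, and 3 of those were protein-coding, Ccl17, Chil4 and Syna, the last of which encodes syncytin-A, a fusion protein of the placenta.

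The effect of IL-13 was measured 3 more times in the series with other libraries, by adding rIL-13 to rIL-17A, to rIL-33 or to both. None of these comparisons shares a library with the one above. All 4 were contrasts in the same fit, however, and used the same estimate of each gene's spread across all groups. Their calls are therefore not independent. A gene with a small estimated spread was more readily called in all 4, which can raise the shared counts given next. How much of the overlap stems from this was not tested. Of the 1857 genes raised by IL-13 alone, 1434 were also called higher beside IL-17A, which is 77.2% of the first set and 88.85% of the 1614 raised there (12.2% of tested genes). Beside IL-33 1228 were shared, 66.1% of the first set and 83.25% of 1475 (11.2%), and beside both cytokines 1131, 60.9% and 78.0% of 1450 (11%). Of the 2075 lowered genes 1756 were shared beside IL-17A (84.6%, and 75.4% of 2329, 17.6% of tested genes, with 29.8% called either way), 1321 beside IL-33 (63.7%, and 78.35% of 1686, 12.8%) and 1606 beside both (77.4%, and 55.9% of 2871, 21.7%). All 4 comparisons called 888 genes higher and 1157 lower. Called higher alone and in no other comparison were 216 genes, and 159 were lower alone only. Of the 230 genes raised at least 2-fold by IL-13 alone 166 were called higher in all 3 others, and of the 138 lowered 99 were called lower.

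The size of the effect beside IL-17A could not be set apart from the effect alone for any gene. The difference of the 2 effects passed for 0 of 13215 genes in limma (smallest adjusted p = 0.253), 372 genes (2.82%) had an unadjusted p under 0.05, and the voom test on recovered reads also called 0. A difference that did not pass is no sign that the effects were equal. Cish rose by 6.20 alone and 5.97 beside IL-17A, Ocstamp by 5.14 and 5.02, Chil3 by 3.76 and 3.69, and Lyl1 changed by -2.62 and -2.56.

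**Figure D4:**
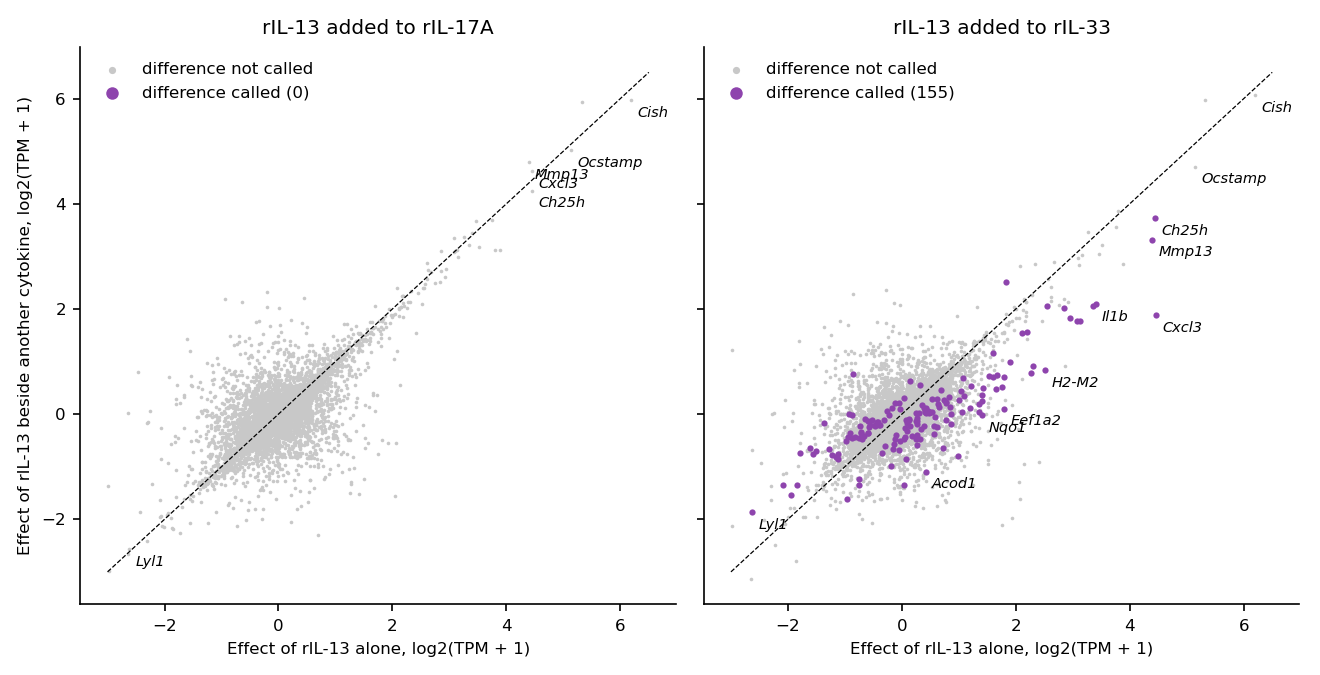
Effect of rIL-13 alone (x axis) against its effect when added to rIL-17A (left, y axis) or rIL-33 (right, y axis), in log2(TPM + 1), for the 13215 tested genes; the dashed line marks equal effects. Purple points are genes whose difference passed, 0 on the left and 155 on the right, where Cxcl3 and Il1b lie below the line.

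Beside IL-33 the effect differed for 155 genes (1.17%), 103 with a positive and 52 with a negative difference (effect alone minus effect beside IL-33), and 135 of them were called for IL-13 alone. The number was 236 with TPM on transcript length, where 12264 genes were tested. Cxcl3 differed most among the genes called: it rose by 4.46 alone and 1.89 beside IL-33 (difference 2.57, adjusted p = 5.61e-05). Its level was 26.5, 27.9 and 25.1 TPM with IL-33 and IL-13 together, below all 3 libraries with IL-13 alone. Il1b rose by 3.40 and 2.08 (adjusted p = 0.000205), with 30.9, 36.4 and 33.01 TPM in the combined group. H2-M2, a class Ib histocompatibility gene, rose by 2.52 and 0.84, Eef1a2, a translation elongation factor gene, by 1.79 and, not called, 0.10, and Gsta2, a glutathione transferase gene with close relatives whose reads could be shared, by 2.26 and 0.78. Cish did not differ by this test (6.20 and 6.06).

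Antioxidant genes were among those that differed. In 10 of the 34 tested the effect of IL-13 alone was the more positive, and none differed the other way, against 103 and 52 of all 13215 genes. Nqo1 rose by 1.41 alone and was 2.55, 3.704 and 2.93 TPM with IL-33 and 3.06, 2.94 and 2.96 with both (effect -0.02, difference adjusted p = 0.000415). Gclm rose by 0.99 alone and 0.28 beside IL-33, and Srxn1, Prdx1 and Txnrd1 by 0.56, 0.34 and 0.49 alone, with effects of -0.22, -0.28 and 0.04 beside IL-33. In the whole list 17 genes rose and 9 fell with IL-13 alone, and 4 rose and 13 fell beside IL-33. Mitosis genes gave 19 risers alone, 17 beside IL-17A and 4 beside IL-33, and 4 of 26 differed (Mki67, Birc5, Cdk1 and, named after its values were seen, Cdca8). Mki67 rose by 1.66 alone and 0.48 beside IL-33 (difference adjusted p = 0.00889). The protein folding genes gave 38, 36 and 38 risers of 45 in those comparisons and none differed, and the citric acid cycle genes gave 17, 12 and 14 of 19.

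**Figure D5:**
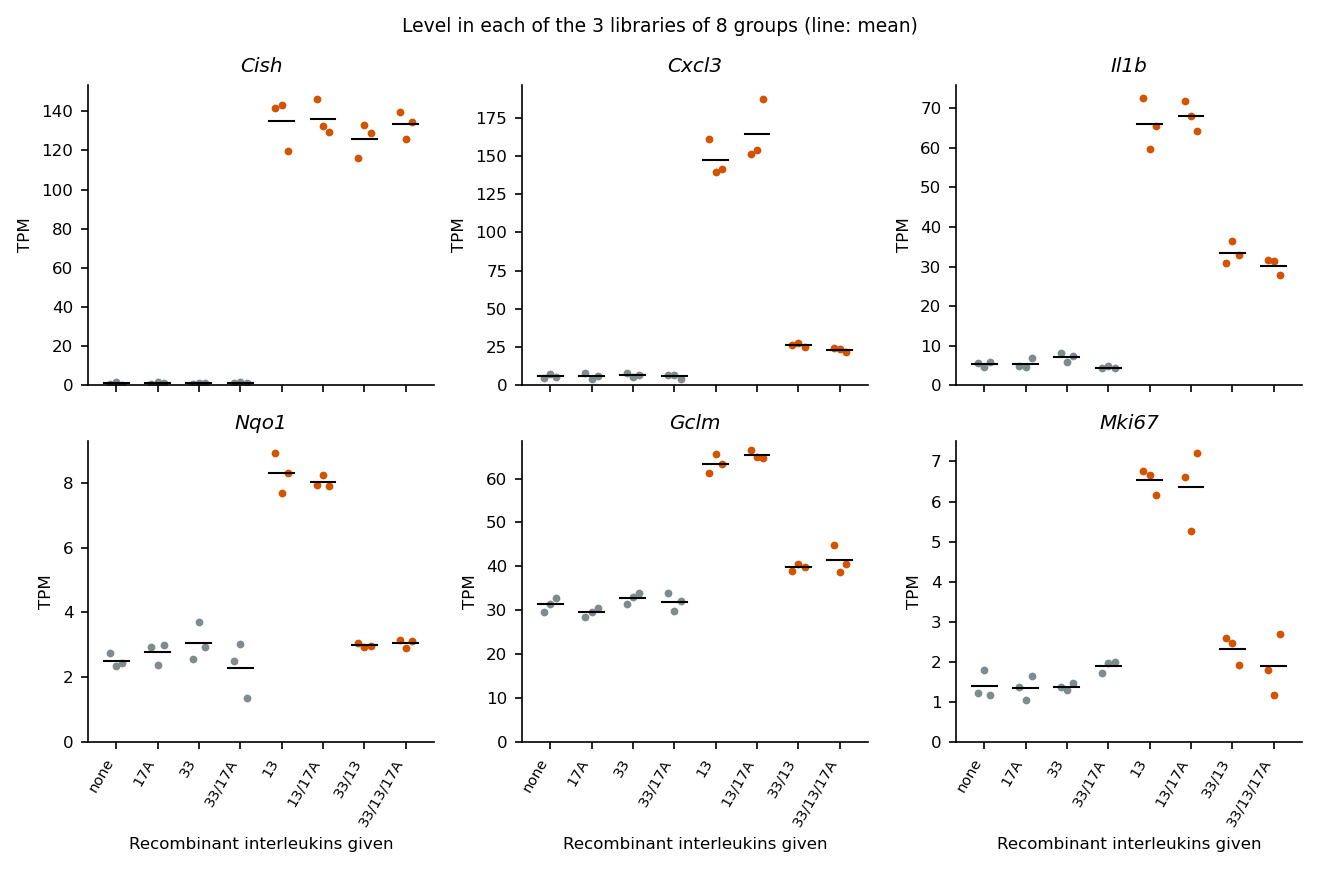
TPM in each of the 3 libraries of all 8 groups for Cish, Cxcl3, Il1b, Nqo1, Gclm and Mki67, with the interleukins given on the x axis (orange, groups with rIL-13; black lines, means). Cish is high in all 4 groups with IL-13, and the other 5 genes are higher in the 2 groups with IL-13 but no IL-33 than in the 2 with both.

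Where IL-33 and IL-17A were both present the effect of IL-13 differed from that alone for 186 genes (1.41%), 133 positive and 53 negative, and 167 of them were called alone. The number was 116 without Untreated replicate 1, 111 without rIL-13 replicate 1 or rIL-13 replicate 2, and 122 without rIL-33/rIL-17A replicate 2. This difference and the one beside IL-33 share the effect of IL-13 alone. Cxcl3 rose by 1.85 there, Il1b by 2.52 and Mmp13 by 3.38, against 4.39 for Mmp13 alone. Mki67 had an effect of -0.03 and Ccna2, which encodes cyclin A, of 0.08, against 1.65 alone. Acod1, which makes itaconate, did not pass with IL-13 alone (15.9, 18.5 and 20.1 TPM untreated, 21.8, 24.6 and 27.6 with IL-13, adjusted p = 0.0703), but fell beside IL-33 (-1.09) and beside both (-0.92), and both differences passed (adjusted p = 0.00165 and 0.0055).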

How the data were processed

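The members and gene lists were chosen with earlier results of these data known. The deposited tables hold TPM per gene in 24 libraries (8 groups of 3), and the submitters' processing notes list STAR and mm10 for how the authors made them. Versions, the counting tool and strand use are not given there. The deposited gene length equals the gene span, introns included, for all 17017 genes, a median of 9.7 times the transcript length, which lowers the TPM of genes with long introns and, through the filter, the scaling to each library's total and the added 1, also bears on fold changes. TPM times length gave whole reads, within 0.05, for 90.59 to 91.54% of low values in the 6 libraries compared, and depth was 9.26 to 11.62 M such reads.

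Genes with 1 TPM or more in at least 3 of the 24 libraries were fitted as log2(TPM + 1) with limma 3.58.1 (R 4.3.3, trended variance, 8 group means, 16 residual degrees of freedom), with Benjamini-Hochberg adjustment over 13215 genes and a threshold of 0.05. Fold changes on this scale understate those of low genes. A difference of effects is the interaction contrast in the same fit. Named genes were the 24 largest called changes each way with a mean of 5 TPM or more, no overlap of the groups and no provisional symbol. Further ones were up to 6 members of each of 47 lists with the smallest p and preset members. Up to 6 genes at 0 in all libraries of 1 group and up to 5 genes per interaction were also named. Some of these genes are not reported here. Alternatives were a pseudocount of 0.1, other filters, the 6 libraries alone, median-ratio scaling, voom on recovered reads, transcript length, and libraries left out. The fit was tested on simulated data. Promoters were searched with Python 3.11.15 and pandas 2.3.3. Figures were drawn with matplotlib 3.10.9.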

Additional observations from a re-analysis of the deposited data

Results flagged for a closer look

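The effect of IL-13 alone, on log2(TPM + 1), differed from its effect beside IL-33 by the interaction test in limma (adjusted p under 0.05) for genes described above, and the values are the effect alone minus the effect beside. Positive differences were 2.57 for Cxcl3, 1.69 for Eef1a2, 1.68 for H2-M2, 1.51 for Acod1, 1.48 for Gsta2, 1.43 for Nqo1, 1.32 for Mmp8 and 1.32 for Il1b. Next came differences of 1.18 for Mki67, 1.08 for Ccl9, 1.07 for Mmp13, 1.04 for Birc5, 1.01 for Fpr2, 0.94 for Top2a, 0.93 for Dcstamp and 0.89 for Pkp2. They were also 0.83 for Mmp19, 0.80 for Chil4, 0.79 for Srxn1, 0.72 for Gclm, 0.72 for Cdca8, 0.71 for Ch25h, 0.63 for Tnf and 0.62 for Ccl6. Smaller positive values were 0.62 for Prdx1, 0.59 for Clec4d, 0.58 for Tnip3, 0.57 for Cdk1, 0.52 for Il1rn, 0.45 for Igf1, 0.44 for Txnrd1 and 0.41 for G6pdx. Negative differences were -0.80 for Apoe, -0.77 for Lyl1, -0.72 for Gpr132, -0.50 for Tnni2, -0.41 for Ndrg1, -0.35 for Spp1, -0.34 for Hpgds, -0.27 for Ctsd, -0.24 for Hexa and -0.21 for Lamp1.

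The effect of IL-13 alone, on log2(TPM + 1), differed from its effect beside IL-33 and IL-17A together by the interaction test in limma (adjusted p under 0.05) for genes described above, and the values are the effect alone minus the effect beside. Positive differences were 2.60 for Cxcl3, 2.09 for H2-M2, 2.08 for Syna, 1.69 for Mki67, 1.63 for Eef1a2, 1.57 for Ccna2, 1.43 for Mmp8 and 1.34 for Acod1. Next came differences of 1.33 for Gsta2, 1.31 for Tm4sf19, 1.11 for Rrm2, 1.11 for Top2a, 1.08 for Nqo1, 1.06 for Birc5, 1.01 for Mmp13 and 0.94 for Mmp19. They were also 0.93 for Mcm5, 0.88 for Il1b, 0.83 for Pkp2, 0.82 for Slc7a11, 0.81 for Ccl9, 0.75 for Dcstamp, 0.74 for Srxn1 and 0.70 for Fpr2. Smaller positive values were 0.63 for Gclm, 0.63 for Cdk1, 0.60 for Ocstamp, 0.55 for Tnip3, 0.52 for Prdx1, 0.50 for Ccl6, 0.50 for Il1rn and 0.47 for Clec4d. The rest were 0.47 for Igf1, 0.45 for Txnrd1, 0.36 for G6pdx, 0.30 for Chil3, 0.30 for Mmp12, 0.26 for Eno1, 0.23 for Cd36 and 0.18 for Clec7a. Negative differences were -0.80 for Lyl1, -0.77 for Apoe, -0.58 for Tnni2, -0.44 for Spp1, -0.36 for Mrto4, -0.33 for Fcgr2b, -0.17 for Hexa and -0.13 for Lamp1. Both sets share the 6 libraries of IL-13 alone. No difference beside IL-17A passed.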

How the results depend on the processing

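The numbers of genes raised (1857) and lowered (2075) stayed within 1.5 times under every alternative. They ranged from 1564 and 1682 with the 6 libraries alone to 2279 (voom) and 2814 (without the 3 libraries treated as standing apart). Leaving out 1 library at a time gave 1544 to 2086 higher, 1642 to 2381 lower and 1813 to 2312 called the same way in all 4 comparisons (2045 with all libraries). The number whose effect differed beside IL-33 (155) was 236 with TPM on transcript length, where 12264 genes were tested, and 114 to 225 with 1 library left out. Beside IL-33 and IL-17A (186) it was 111 to 263, with 116 without Untreated replicate 1, 111 without rIL-13 replicate 1 or rIL-13 replicate 2, and 122 without rIL-33/rIL-17A replicate 2. Beside IL-17A it was 0 throughout. The cause of these shifts was not tested. Over the genes named, 1767 of 1814 values under other settings kept their direction and side of the threshold. With libraries left out 6390 of 6500 did, and 0 reversed in either. Leaving out a library of any other group cannot change a gene's log2 change here, only its spread. Many genes were also named for a large change or small p in these same data, so these counts are no independent check. The settings named above for a lost call are not always the only ones. Ptpn1, Il4ra, Abca1, Nfe2, Runx1, Insig2, Fads1 and Pex7 each lost it in others too. No paired analysis was possible because the labels number the libraries through the groups and share no number between them, and the replicate numbers used here only name libraries. The calls rest on 3 libraries a group of 9.26 to 11.62 M reads. Genes that did not reach 1 TPM in 3 libraries are outside these counts. With no filter 2021 were higher and 2163 lower.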
